A study of Homo sapiens with 11 samples.

Results

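The 8 mature miRNAs described here are both arms of miR-101, miR-340, miR-374a and miR-374b, out of 2576 mature miRNAs in the count tables. They were chosen by their measured log2 fold changes, as miRNAs rich in A and U whose level fell when H2O2 was given during neuronal differentiation and rose when it was given before. Their changes with H2O2, and the control levels behind those changes, are therefore described without a test of their own. Where calls or p-values of tests over the whole table are counted for them, these counts are description only. They give no support, since the same changes chose the arms. Both arms of each hairpin were kept, whichever arm had the pattern. By the values below, hsa-miR-340-3p and hsa-miR-374b-5p did not rise in the second experiment, and hsa-miR-101-5p and hsa-miR-340-3p hold less than 60% A and U, so the description does not hold for every arm.

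The study asked how H2O2, a source of oxidative stress, changes miRNA expression in SH-SY5Y, a human neuroblastoma cell line that becomes neuron-like in all-trans retinoic acid (ATRA). Small RNA was sequenced from 11 libraries of this single line, all differentiated with 10 µM ATRA for 7 days. In co-treatment, 3 libraries had 10 µM H2O2 during the 7 days (AH 1 to 3) and 3 controls had none (AH-con 1 to 3). In pre-treatment, 3 libraries had 10 µM H2O2 for 72 h before ATRA, after which it was removed (HA 1 to 3), and 2 controls had none (HA-con 1 and 2). The cultures were described as biological triplicates from which the authors removed 1 outlying sample, and any other HA control was not analysed here. No library is of undifferentiated cells, and a line that is a tumour subclone limits both as models of neurons.

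Libraries held between 5343953 and 8927582 counts, with a median of 7425640, so 3 counts correspond to between 0.336 and 0.561 CPM, the level of a miRNA relative to its library's total. All levels below are CPM further scaled with TMM factors over the 11 libraries. Replicates of AH-con, AH and HA resembled each other with r between 0.98 and 1.00 over 404 miRNAs, and both HA-con libraries with r = 0.92. HA-con 1 stood apart, with 540 counts of miR-223-3p, a miRNA of white blood cells, against 4 in HA-con 2, and 1007 counts of the epithelial miR-205-5p against 32. Summed over the 4 white blood cell markers the CPM was 119.9 in that library and at most 22.3 in the other 10. Over the 3 epithelial markers found by name the sum was 180.4 CPM in HA-con 1 and at most 39.2 CPM elsewhere. That excess lay in miR-205-5p (143.7 CPM), while miR-200c-3p (25.4 CPM) and miR-141-3p (11.3 CPM) were within the range of the other libraries. Pre-treatment values are therefore also given without each of the HA controls. Of 8 neuron-enriched miRNAs, 7 were above 3 counts in at least 1 library of every group, with summed levels between 4569 and 6328 CPM. Most of the sum came from miR-132-3p (1965 to 4399 CPM) and miR-128-3p (1144 to 1978 CPM). miR-9-5p, miR-9-3p and miR-129-5p had at most 9.97 CPM in any library. miR-124-3p, the best known of the 8, was at or under 3 counts in AH-con, AH and HA-con.

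MicroRNAs are cut from hairpin precursors, and either strand of the stem (the 5p or the 3p arm) can be loaded into Argonaute, where bases 2 to 8, the seed, pair with target messages that are then repressed. miR-101 is best known for repressing the chromatin methyltransferase EZH2, whereas miR-340 is made from an intron of the ubiquitin ligase gene RNF130. miR-374a and miR-374b are made from FTX, a long non-coding RNA of the X inactivation centre that also holds miR-545 and miR-421.

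The mature sequences, from the RefSeq miRNA records of GRCh38.p14, are shown because the arms were chosen partly for their base composition and because arms of different hairpins resemble each other. Capitals mark the seed.
hsa-miR-101-3p: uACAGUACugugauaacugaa
hsa-miR-101-5p: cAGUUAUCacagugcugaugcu
hsa-miR-340-5p: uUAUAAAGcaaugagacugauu
hsa-miR-340-3p: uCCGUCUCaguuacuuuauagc
hsa-miR-374a-5p
hsa-miR-374a-3p: cUUAUCAGauuguauuguaauu
hsa-miR-374b-5p: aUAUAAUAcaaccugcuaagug
hsa-miR-374b-3p: cUUAGCAGguuguauuaucauu

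The 3p arms of miR-374a and miR-374b share 18 of 22 bases, and 6 of 7 seed bases. Counted from the 5′ end, the miR-374a arm first, they differ by U5G, A9G, G17A and A19C. The seeds of hsa-miR-340-5p and hsa-miR-374b-5p share 5 of 7 bases. hsa-miR-374a-5p had no sequence under its name in these records, so its seed and base composition were not compared with those of the other arms. A seed shared by it, with hsa-miR-374b-5p or any other miRNA, could thus not be seen. No 2 members with a sequence have the same seed, and 1 other miRNA in the tables, hsa-miR-6827-3p, has the seed of hsa-miR-340-3p. It had at most 3 counts in any library. A and U made up 77.3% of hsa-miR-374a-3p, 72.7% of hsa-miR-340-5p, 68.2% of each miR-374b arm and 66.7% of hsa-miR-101-3p. Just below the 60% used for the AU-rich list lay hsa-miR-340-3p with 59.1%, followed by hsa-miR-101-5p with 54.5%.

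On GRCh37, the build of the authors' alignment (hg19), hsa-miR-101-3p can come from MIR101-1 at chr1:65524117-65524191, minus strand, in an intron of JAK1, and from MIR101-2 at chr9:4850291-4850381, plus strand, in an intron of RCL1. Counts of this arm do not tell the hairpins apart. MIR340 lies at chr5:179442303-179442397 on the minus strand. MIR374A lies at chrX:73507121-73507192 in an intron of FTX, next to MIR545 at chrX:73506939-73507044. MIR374B lies at chrX:73438382-73438453 in an exon of FTX, next to MIR421 at chrX:73438212-73438296. All 4 hairpins in FTX are on the minus strand. The miR-374c hairpin is antisense to MIR374B, and whether counting used strand was not given in the sources used here. Its arms, hsa-miR-374c-5p and hsa-miR-374c-3p, had at most 4 counts in any library.

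In co-treatment, all 8 arms were lower with H2O2, and for each of them every AH library lay below every AH-con library. All 8 also passed the call used for the whole table, edgeR's exact test at a false discovery rate (FDR) under 0.05 and a change of more than 0.6 in either direction on the log2 scale (log2FC). Among the 790 miRNAs tested, 15.6% were called lower and 10.6% higher, and the groups of 41.6% did not overlap. These shares are given for scale only, since the fall was a condition of the choice. The median log2FC of the 8 arms was -1.02, against -0.04 over all miRNAs tested. With 1 library left out, the call was passed by 3 arms without AH 3, 4 without AH 1 and 4 without AH-con 3. It was passed by 5 arms without AH-con 1, 7 without AH 2 and 8 without AH-con 2. Over all 790 miRNAs tested, these fits called 63, 75, 55, 60, 133 and 153 lower, in that order. In bulk cultures, fewer cells of a type and less RNA per cell cannot be told apart.

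In pre-treatment, 6 of the 8 arms were higher in every HA library than in both controls, and 3 of them, hsa-miR-101-3p, hsa-miR-340-5p and hsa-miR-374b-3p, passed the same call. Over the 868 miRNAs tested, 5.41% were called higher, 9.91% lower, and the groups of 46.0% did not overlap, which is for scale as before. The median log2FC of the 8 arms was 0.74, against -0.19 over all miRNAs tested. With edgeR's quasi-likelihood test 0 of the 8 were called in pre-treatment. By this test 4 of the 8 had an unadjusted p under 0.05, as had 254 of all 868 miRNAs tested. With DESeq2 4 of the 8 were called higher, as were 58 of all 868 miRNAs tested. The quasi-likelihood test called 17 miRNAs in all, in place of 133 by the exact test. Without HA-con 1 or HA-con 2 only 1 control remains, so for those fits log2FC alone is given, with each arm below. Without HA 1, HA 2 or HA 3 the exact test called 0 of the 8 arms, and 8, 12 and 14 miRNAs in all. In each of these fits 3 of the 8 arms had an unadjusted p under 0.05 by the exact test, as had between 148 and 155 of all 868 miRNAs.

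**Figure D1:**
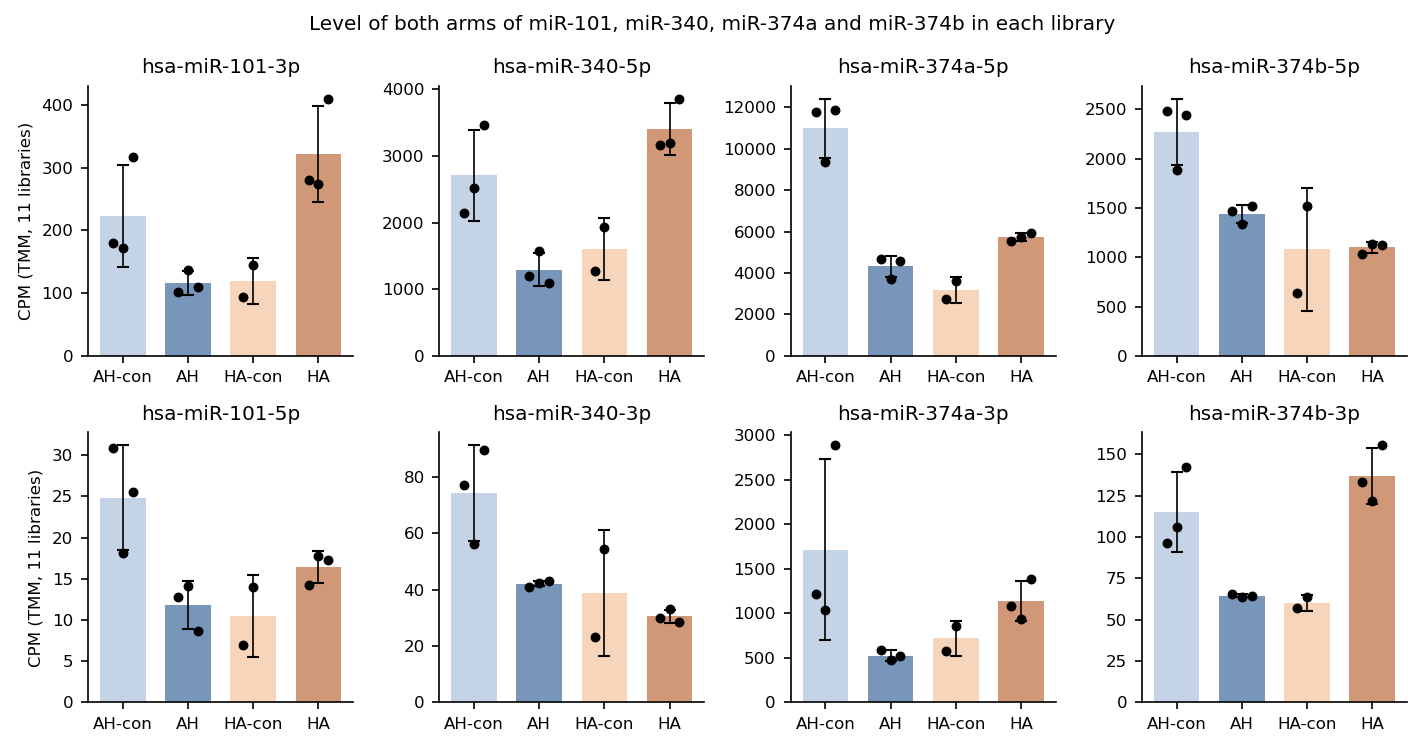
Level of each of the 8 arms in CPM (TMM factors over 11 libraries) by group, with 1 point per library, bars at the group mean and error bars of 1 SD (n = 3, and n = 2 for HA-con). All AH points lie below the AH-con points in each panel, whereas HA points lie above the HA-con points in 6 panels and between them for hsa-miR-340-3p and hsa-miR-374b-5p.

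The 3p arm of miR-101 is the arm that represses EZH2. Its level was 179.7, 172.5 and 317.6 CPM in AH-con 1 to 3, and 101.6, 137.3 and 109.7 CPM in AH 1 to 3. In pre-treatment it was 93.2 and 145.4 CPM in HA-con 1 and 2, and 281.0, 273.8 and 409.8 CPM in HA 1 to 3. The highest single libraries were AH-con 3 and HA 3, and the groups did not overlap in either experiment. Co-treatment gave it a log2FC of -0.96 (SE 0.29), and pre-treatment one of 1.41 (SE 0.36), the highest pre-treatment value of the 8 arms, ranked 47 of 868. It was 1.15 without HA-con 1 and 1.84 without HA-con 2. Without AH-con 3, the co-treatment value was -0.57, below the size required for a call.

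The 5p arm of miR-101 was the rarer product, and the 3p arm had between 5.83 and 23.7 times its counts. AH-con 1 to 3 had 30.8, 18.2 and 25.5 CPM, and AH 1 to 3 had 12.7, 14.2 and 8.61 CPM. HA-con 1 and 2 had 6.99 and 14 CPM, and HA 1 to 3 had 14.2, 17.7 and 17.3 CPM. The groups are clearly apart in co-treatment, but in pre-treatment only by the small step from HA-con 2 to HA 1. Log2FC was -1.09 (SE 0.30) in the first case, and the value of 0.62 (SE 0.42) in the other did not pass the call. That value was 0.23 without HA-con 1 and 1.28 without HA-con 2.

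The 5p arm of miR-340 is the abundant product of its hairpin. It measured 2145, 2526 and 3473 CPM in AH-con 1 to 3 and 1206, 1573 and 1101 CPM in AH 1 to 3. In pre-treatment it measured 1277 and 1939 CPM in the controls and 3164, 3199 and 3859 CPM in HA 1 to 3. Every HA library was above both of its own controls and above AH-con 1 and 2. Co-treatment log2FC was -1.10 (SE 0.26). Pre-treatment log2FC was 1.06 (SE 0.31), with 0.82 without HA-con 1 and 1.47 without HA-con 2.

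The 3p arm of miR-340 followed its 5p partner only in co-treatment. AH-con 1 to 3 had 77.0, 56.0 and 89.5 CPM and AH 1 to 3 had 41.0, 42.3 and 42.9 CPM, a log2FC of -0.84 (SE 0.26). HA-con 1 and 2 had 23.1 and 54.5 CPM, and HA 1 to 3 had 30.1, 33.0 and 28.5 CPM. All 3 HA values lie between those of the controls, and log2FC was -0.37 (SE 0.43). Its sign depends on the control, with -0.83 without HA-con 1 and 0.46 without HA-con 2.

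hsa-miR-374a-5p was the most abundant of the 8 arms, with between 44 and 65.4% of their joint counts in each library. AH-con 1 to 3 had 11764, 9353 and 11852 CPM, against 4662, 3716 and 4574 CPM in AH 1 to 3. HA-con 1 and 2 had 2735 and 3607 CPM, against 5569, 5741 and 5934 CPM in HA 1 to 3. The 3 HA libraries differ little from each other, and both H2O2 groups lie between the AH-con and the HA-con levels. Co-treatment log2FC was -1.37 (SE 0.22). The pre-treatment value was 0.84 (SE 0.27), and 0.68 without HA-con 1 and 1.13 without HA-con 2.

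Its partner hsa-miR-374a-3p had the largest co-treatment change of the 8, ranked 18 of 790 from the lowest. It stood at 1216, 1039 and 2884 CPM in AH-con 1 to 3, and at 587, 471 and 520 CPM in AH 1 to 3. AH-con 3 was more than double the other controls, and log2FC was -1.71 (SE 0.32) with it and -1.07 without it. In pre-treatment the controls had 581 and 856 CPM and HA 1 to 3 had 1086, 939 and 1382 CPM. The step between the groups was small beside the spread within them, with log2FC 0.64 (SE 0.32). It was 0.41 without HA-con 1 and 1.02 without HA-con 2.

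hsa-miR-374b-5p lay nearest to the size required for a call in co-treatment, with log2FC -0.68 (SE 0.23). AH-con 1 to 3 had 2487, 1886 and 2444 CPM and AH 1 to 3 had 1470, 1338 and 1518 CPM. In pre-treatment HA-con 1 and 2 had 643 and 1523 CPM, while HA 1 to 3 had 1039, 1135 and 1128 CPM. The HA libraries lie between the controls, and log2FC was -0.01 (SE 0.40). It was -0.46 without HA-con 1 and 0.83 without HA-con 2, so no direction can be given.

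hsa-miR-374b-3p had 96.4, 106.3 and 142.6 CPM in AH-con 1 to 3, and 65.4, 63.9 and 64.1 CPM in AH 1 to 3. HA-con 1 and 2 had 56.9 and 63.6 CPM, and HA 1 to 3 had 133.3, 121.8 and 155.4 CPM. This arm had controls closest to each other in pre-treatment, unlike its 5p partner. It fell by 0.86 on the log2 scale (SE 0.26) in the first experiment. Its pre-treatment log2FC was 1.17 (SE 0.29), with 1.11 without HA-con 1 and 1.32 without HA-con 2.

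**Figure D2:**
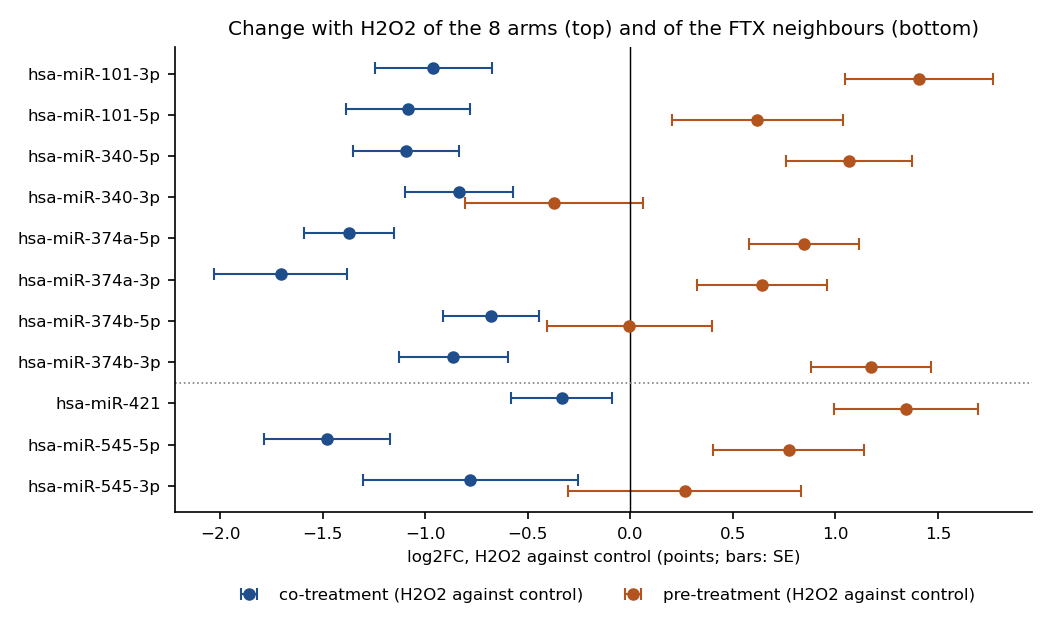
Log2FC of H2O2 against control in co-treatment (blue) and pre-treatment (orange) for the 8 arms and, below the dotted line, for the 3 tested neighbours in FTX, with bars of 1 SE. Co-treatment values of the 8 arms run from -1.71 to -0.68, and pre-treatment values from -0.37 to 1.41, with hsa-miR-340-3p and hsa-miR-374b-5p at or below 0.

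The controls of both experiments differed. For 8 of 8 arms every AH-con library lay above both HA-con libraries, with ratios of group means from 1.69 for hsa-miR-340-5p to 3.47 for hsa-miR-374a-5p. Over all 894 miRNAs tested in either experiment this held for 24.0%. The converse order, with every HA library above every AH library, held for 6 of the 8 arms against 16.0% of all miRNAs, the exceptions being hsa-miR-340-3p and hsa-miR-374b-5p. With library size alone as the scale, 5 arms kept that order. Selecting arms that fell in one experiment and rose in the other favours high AH-con and low HA-con levels, and experiment and any batch between the experiments cannot be told apart. In all, the 8 arms took between 1.5 and 1.97% of counts in AH-con, 0.795 and 0.823% in AH, 0.547 and 0.754% in HA-con, and 1.13 and 1.24% in HA.

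The ratio of arms within a library does not depend on scaling between libraries. The 5p arm of miR-340 took between 99.0 and 99.3% of the reads of both arms in HA, and between 96.2 and 98.2% in the 8 other libraries, so all HA libraries lay above the rest. The 5p arm of miR-374b took between 87.9 and 90.3% in HA, below the 91.9 to 96.3% of the 8 other libraries, of which HA-con 1 was the lowest. The mean share of the miR-340 5p arm was 99.1% ± 0.148 (SD, n = 3) in HA and 97.7% ± 0.675 (SD, n = 2) in HA-con, and that of the miR-374b 5p arm was 88.9% ± 1.24 (SD, n = 3) and 93.9% ± 2.92 (SD, n = 2). These ratios use the samples that chose the arms and were not tested.

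For miR-101 the HA libraries likewise lay above the 8 others. Its 3p arm took between 93.9 and 95.9% in HA and between 85.4 and 93.0% elsewhere. For miR-374a the groups were not ordered in this way. The 5p arm of miR-374a took between 88.7 and 89.8% in AH, and 90.6, 90.0 and 80.4% in AH-con 1 to 3. AH-con 3, the library with the high 3p count, thus had the lowest share of all libraries. It lay nearer to the HA-con libraries (82.5 and 80.8%) and HA libraries (81.1 to 85.9%) than to the rest of its own group. For a single library, the 95% exact binomial interval of AH-con 3 was 80.2 to 80.7%, which covers counting error only, since reads are not taken as independent molecules.

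**Figure D3:**
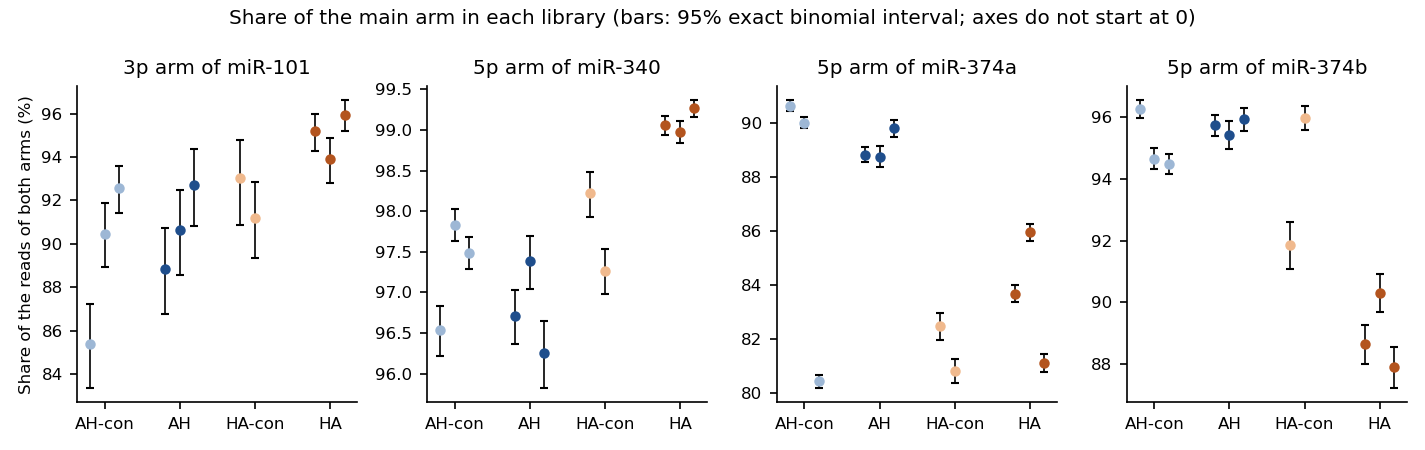
Share of the more abundant arm in the reads of both arms, in percent, for miR-101, miR-340, miR-374a and miR-374b, with 1 point per library and 95% exact binomial intervals for counting error. HA libraries (dark orange) hold the highest shares for miR-340, from 99.0 to 99.3%, and the lowest for miR-374b, from 87.9 to 90.3%, and the axes do not start at 0.

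Over the 11 libraries the arms formed groups that crossed the hairpins. On log2(CPM + 1), hsa-miR-101-3p, hsa-miR-340-5p and hsa-miR-374b-3p correlated with each other at r between 0.94 and 0.97, and hsa-miR-340-3p and hsa-miR-374b-5p at r = 0.96. Partners from the same hairpin correlated at r = 0.13 for miR-340, 0.23 for miR-374b, 0.63 for miR-101 and 0.78 for miR-374a. The 4 groups and a shared scaling lie behind all 11 points, so these values describe the libraries and were not tested. The arms that stayed level or fell in pre-treatment are the pair that correlated at 0.96.

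**Figure D4:**
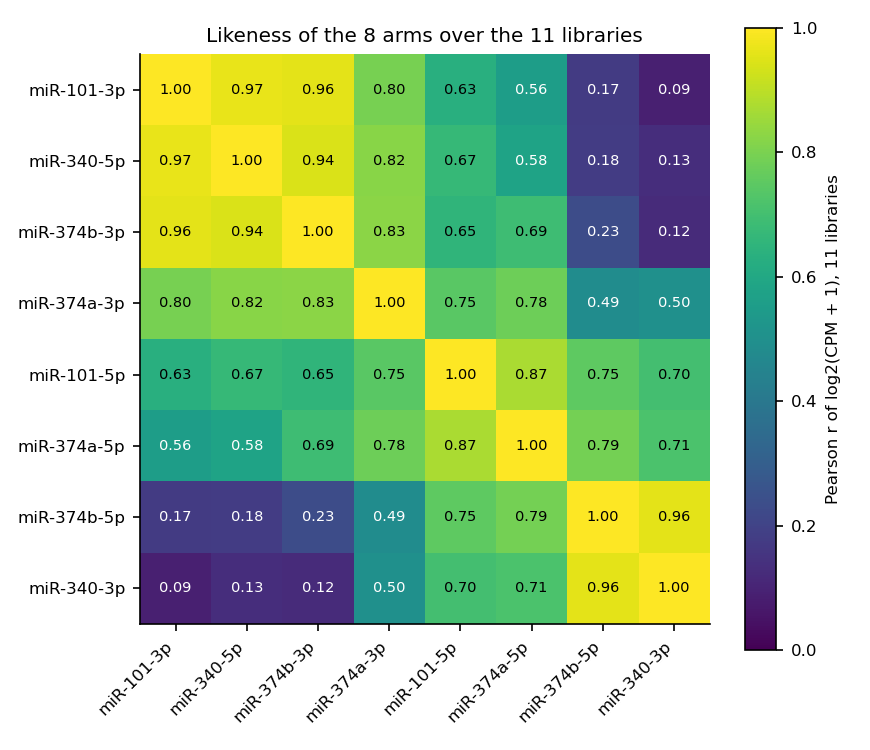
Pearson r of log2(CPM + 1) over 11 libraries for each pair of the 8 arms, as a coloured and numbered grid. The block of hsa-miR-101-3p, hsa-miR-340-5p and hsa-miR-374b-3p holds r from 0.94 to 0.97, and hsa-miR-374b-5p and hsa-miR-340-3p form a pair at 0.96.

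Among 396 other miRNAs with a mean of at least 10 CPM, those most like hsa-miR-101-3p over the libraries were miR-190a-5p (r = 0.94), miR-627-5p (0.94) and miR-192-5p (0.93). For hsa-miR-340-5p they were miR-627-5p (0.96), miR-190a-5p (0.95) and miR-542-3p (0.93), so 2 miRNAs appear for both. For hsa-miR-374a-5p they were miR-454-3p (0.97), miR-19b-3p (0.94) and miR-545-5p (0.94), the last made from the same FTX intron. For hsa-miR-374b-5p they were miR-889-3p (0.97), miR-16-2-3p (0.96) and miR-15b-3p (0.94).

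The neighbours of miR-374a and miR-374b in FTX were not among the arms chosen by their fold changes, so tests of them are given. They were listed with earlier results of these data known and lie at the same locus as miR-374a and miR-374b. Their tests are thus not independent of the choice, and the difference in response was fitted without a correction for base composition. Of the 5 neighbours, hsa-miR-545-5p, hsa-miR-545-3p and hsa-miR-421 had enough counts. Their sequences are shown for comparison with the arms above, seeds in capitals.
hsa-miR-545-5p: uCAGUAAAuguuuauuagauga
hsa-miR-545-3p: uCAGCAAAcauuuauugugugc
hsa-miR-421: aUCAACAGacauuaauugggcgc

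hsa-miR-545-5p, from beside MIR374A, had 21.3, 19.4 and 28.4 CPM in AH-con 1 to 3 and 8.31, 5.73 and 11 CPM in AH 1 to 3. It fell by 1.48 on the log2 scale (SE 0.31, FDR 2.75e-04 by edgeR's exact test), with every AH library below every control. A and U make up 77.3% of this miRNA, and with the trend on base composition removed its co-treatment log2FC was -0.25 and no longer passed the call (FDR 0.469 by edgeR's quasi-likelihood test), against -1.22 over the same miRNAs without the correction. In pre-treatment it had 6.56 and 8.51 CPM in the controls and 13.8, 14.9 and 10.1 CPM in HA 1 to 3, with log2FC 0.77 (SE 0.37, FDR 0.285 by edgeR's exact test). Its value was 0.61 without HA-con 1 and 1.04 without HA-con 2. Between the experiments its response differed by 2.23 (SE 0.50, FDR 0.00574 by edgeR's quasi-likelihood test of the interaction), where 29.6% of 894 miRNAs had an FDR under 0.05.

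hsa-miR-421, from beside MIR374B, was not called in co-treatment, and its difference from the arms was not tested. AH-con 1 to 3 had 864, 1010 and 1042 CPM and AH 1 to 3 had 754, 876 and 738 CPM, groups that overlapped, with log2FC -0.34 (SE 0.25, FDR 0.366 by edgeR's exact test). HA-con 1 and 2 had 662 and 309 CPM and HA 1 to 3 had 1291, 1196 and 1170 CPM, which is a rise of 1.34 in log2FC (SE 0.35, FDR 0.0198 by edgeR's exact test). This call was not made with edgeR's quasi-likelihood test (FDR 0.0660), and without 1 HA library the FDR by the exact test of edgeR was between 0.147 and 0.209. The log2FC was 1.99 without HA-con 1 and 0.94 without HA-con 2. With the trend on base composition removed it was 0.86 and not called (FDR 0.251 by edgeR's quasi-likelihood test), as it was not over the same miRNAs without the correction (1.03, FDR 0.126 by the same edgeR test). The difference in response was 1.63 (SE 0.41, FDR 0.0101 by edgeR's quasi-likelihood test).

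The order of the controls was opposite for both products of that stretch of FTX, since HA-con 1 had the lower level of hsa-miR-374b-5p and the higher level of hsa-miR-421. hsa-miR-545-3p had at most 4.11 CPM in any library and passed no call, with a co-treatment log2FC of -0.78 (SE 0.52, FDR 0.270 by edgeR's exact test). The pre-treatment log2FC was 0.26 (SE 0.57, FDR 0.881 by edgeR's exact test), with 0.37 without HA-con 1 and 0.24 without HA-con 2. Its difference in response was 1.04 (SE 0.85, FDR 0.377 by edgeR's quasi-likelihood test). hsa-miR-144-3p, whose seed differs from that of hsa-miR-101-3p by C8U, had at most 10 counts and was not tested.

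Within FTX, the abundance of hsa-miR-374a-5p relative to hsa-miR-374b-5p also differed between groups. The ratio was between 4.73 and 4.96 in AH-con and between 2.78 and 3.17 in AH, while it was 4.26 and 2.37 in HA-con 1 and 2 and between 5.06 and 5.36 in HA. HA-con 2 thus lay below the AH range, and HA-con 1 between AH and AH-con.

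A and U content, which was part of the choice, moved with the change of all miRNAs. Over 363 miRNAs with at least 10 CPM and a sequence, log2FC in co-treatment correlated with A and U content at Pearson's r = -0.66 (Spearman's rho -0.67), and over 348 in pre-treatment at r = 0.38 (rho 0.44). These are correlations across miRNAs within the same libraries and are not tests. Of the AU-rich list, the tested miRNAs other than the members with at least 60% A and U, 57 of 126 (45.2%) were called lower in co-treatment and 0 higher, with a median log2FC of -0.85. By edgeR's exact test, its quasi-likelihood test and DESeq2, 0 of them rose at an unadjusted p under 0.05. By the exact test it was 3 of 228 without a low-count filter, 1 of 64 with at least 10 CPM and 1 of 126 without AH 1. With the trend on base composition removed it was 8 of 64 by the quasi-likelihood test, and 1 of 64 without the correction. In pre-treatment 13 of 129 (10.1%) were called higher and 1 lower, with a median of 0.55. The other tested miRNAs with a sequence had medians of 0.17 and -0.39.

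**Figure D5:**
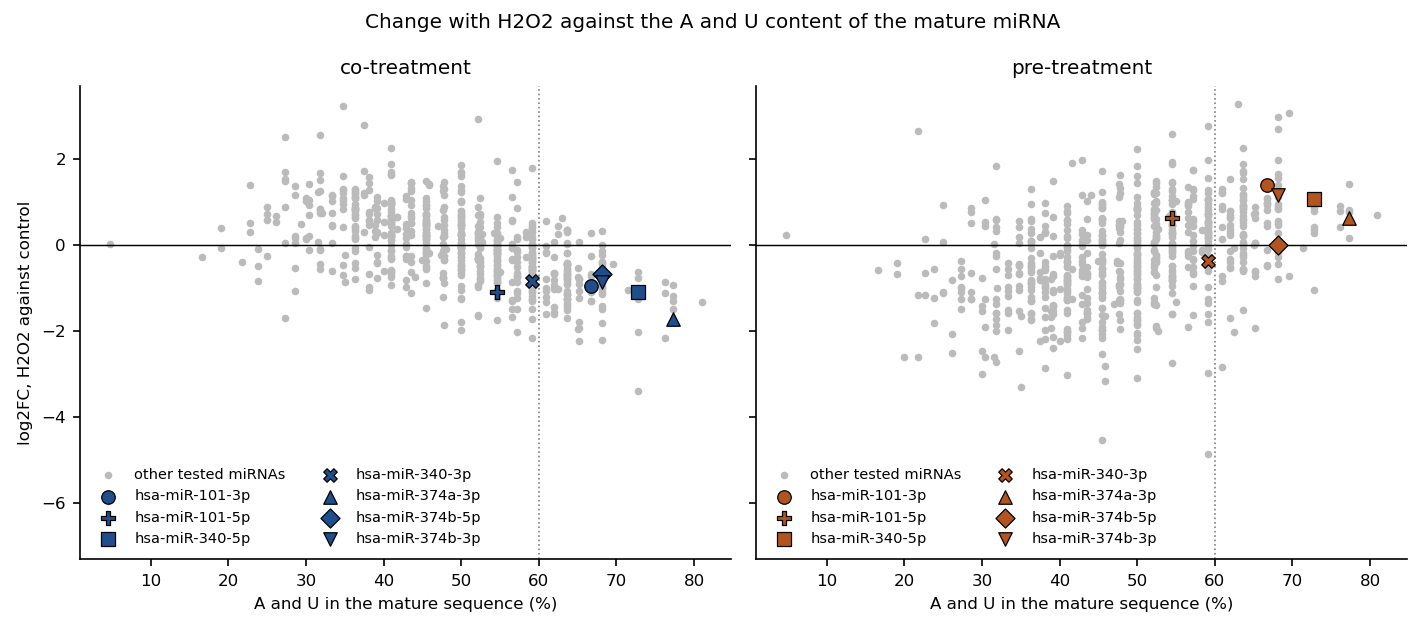
Log2FC of H2O2 against control, vertical, against the percent of A and U in the mature miRNA, horizontal, for all tested miRNAs with a sequence (grey) and 7 of the 8 arms (symbols), in co-treatment and pre-treatment. The dotted line marks 60%, and values fall to the right in co-treatment (r = -0.66 over miRNAs with at least 10 CPM) and rise to the right in pre-treatment (r = 0.38).

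The share of counts in the AU-rich list was between 11.6 and 13.2% in AH-con, 7.05 and 8.21% in AH, 5.35 and 6.23% in HA-con, and 10.5 and 10.9% in HA, the same order of groups as the joint share of the 8 arms. When each library's trend on base composition was removed in a quasi-likelihood fit, 0 of 7 arms were called in co-treatment and 1 had an unadjusted p under 0.05, where 5 of 7 were called by the same edgeR test over the same miRNAs without the correction. The co-treatment log2FC of hsa-miR-101-5p, the arm with the least A and U, was -0.82 with the trend removed and -0.86 without. Removal of the trend moved hsa-miR-374a-3p from -1.44 to -0.39. It moved hsa-miR-101-3p from -0.70 to -0.05, and hsa-miR-340-5p from -0.84 to 0.04. In pre-treatment, hsa-miR-101-3p had 0.83 with the trend removed, hsa-miR-374b-3p 0.51, hsa-miR-340-5p 0.37 and hsa-miR-374a-3p -0.16. hsa-miR-340-3p (-0.68) and hsa-miR-374b-5p (-0.53) lay below 0. Removing the trend also takes out any change with H2O2 that runs along base composition. The part of base composition in the changes of the arms was thus not tested.

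Some markers of other tissues also differed between the pre-treatment groups. miR-122-5p, the liver miRNA, was between 547.6 and 821.9 CPM in HA and between 98.3 and 255.6 CPM in HA-con, and it was between 207.1 and 547.2 CPM in AH and 135.8 and 304.6 CPM in AH-con. The 4 markers of red blood cells summed to between 10.4 and 14.8 CPM in HA, 2.14 and 3.73 CPM in HA-con, 5.90 and 10.1 CPM in AH, and 4.19 and 7.27 CPM in AH-con. Of these, miR-451a and miR-144-5p were higher in every HA library than in both controls. miR-486-5p was not, with 0.716, 1.36 and 0.415 CPM in HA 1 to 3 and 1.14 and 1.19 CPM in HA-con 1 and 2. Nor was miR-144-3p, with 10, 4 and 0 counts in HA 1 to 3 and 0 and 1 in HA-con 1 and 2. The white blood cell sum in HA (17.3 to 21.6 CPM) and the epithelial sum (31.4 to 35.3 CPM) lay within the HA-con range. The 2 muscle markers in the tables summed to at most 3.68 CPM in any library. Their part in the changes of the 8 arms was not tested.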

How the data were processed

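Small RNA-seq counts of 2576 mature miRNAs were deposited by the authors for 11 libraries of SH-SY5Y cells, without normalization. Per the labels and methods, the authors used cutadapt 2.10 for trimming, Bowtie2 2.4.1 for alignment (hg19) and HTSeq 0.7.2 for counting. The miRBase release, and whether molecular identifiers or strand were used in counting, is not given in the sources used here. The authors' tables of fold changes, log CPM, p-values and FDR were not used.

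Groups came from the labels. Treated and control libraries of an experiment were compared by the exact test of edgeR 4.0.16 (R 4.3.3), with TMM scaling, Benjamini-Hochberg adjustment over all miRNAs tested, FDR under 0.05 and an absolute log2FC above 0.6, after the study's methods. The low-count filter was the CPM of 5 counts in an experiment's smallest library, 0.936 in at least 3 co-treatment libraries and 0.721 in at least 2 pre-treatment libraries. Standard errors came from the quasi-likelihood fit. The difference in response was the interaction term when all 11 libraries were fitted by quasi-likelihood, and p-values measure the spread between these cultures. The tests were tested on simulated data. Levels are CPM with TMM factors over 11 libraries.

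The 8 members and all lists were chosen with earlier results of these data known. Named besides the members are their neighbours in FTX, seed-mates and, for each of 4 members, the 3 most similar miRNAs by Pearson correlation. Mature sequences were matched by name to RefSeq (GRCh38.p14) for 2262 of 2576 names and 7 of 8 members, and hairpins to a GRCh37 annotation.

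Alternatives were edgeR's quasi-likelihood test, DESeq2 1.42.0, library size or DESeq2 size factors, other low-count filters, no log2FC threshold, a fit of all libraries, the replicate number as a block, removal of each library's lowess trend (span 0.5) on base composition, and each library left out in turn.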

Additional observations from a re-analysis of the deposited data

Results flagged for a closer look

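For 6 of the 8 arms, every H2O2 library lay below the control mean in co-treatment and above it in pre-treatment. How often this holds over all miRNAs was not counted. The groups of 41.6% of miRNAs tested in co-treatment and 46.0% in pre-treatment did not overlap, in either direction. These shares follow another condition, within a single experiment, and do not give the share for the pattern above. The pre-treatment log2FC minus the co-treatment log2FC was 2.37 for hsa-miR-101-3p, 1.71 for hsa-miR-101-5p, 2.16 for hsa-miR-340-5p, 2.22 for hsa-miR-374a-5p, 2.35 for hsa-miR-374a-3p and 2.04 for hsa-miR-374b-3p. This contrast chose the arms, and the difference was not tested for them. The neighbours in FTX share the locus of miR-374a and miR-374b and were listed with earlier results of these data known. For them the difference was tested, without a correction for base composition. By the separate fits it was 2.25 for hsa-miR-545-5p (interaction FDR 0.00574 by edgeR's quasi-likelihood test over 894 miRNAs) and 1.68 for hsa-miR-421 (interaction FDR 0.0101 by the same edgeR test). Experiment and any batch between the experiments cannot be told apart in these values.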

How the results depend on the processing

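In co-treatment, 207 miRNAs were called, and the count was 86 with one fit of all 11 libraries, 126 among the 363 miRNAs with a sequence and at least 10 CPM, 24 among these with the GC trend removed, and 110 to 279 with 1 library left out (without AH 3 and without AH-con 2). Of the 8 arms called lower, 5 remained without a low-count filter, 4 with a mean of at least 10 CPM, 4 with one fit of all libraries, 5 of 7 in the sequence subset, 0 of 7 with the GC trend removed, and 3 to 8 with 1 library left out (3 without AH 3, 4 without AH 1 or AH-con 3, 5 without AH-con 1). The single call among the neighbours became 0 with the GC trend removed. The AU-rich median of -0.85 was -0.75 with library size, -0.65 with at least 10 CPM and -0.67 in the sequence subset. It was 0.0046 with the GC trend removed, and -0.93 to -0.71 with 1 library left out. The list is defined by base composition, so in both experiments removing that trend moves its median towards 0 by construction. The GC correction also turned the sign of hsa-miR-340-5p (0.0404), hsa-miR-374b-3p (0.0745), hsa-miR-374b-5p (0.25) and hsa-miR-421 (0.11). With library size, 99 of 196 calls were higher in place of 84 of 207, and with a mean of at least 10 CPM 92 of 153.

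In pre-treatment, 133 miRNAs were called, and the count was 17 with the quasi-likelihood test, 61 without a low-count filter, 52 in the sequence subset, 41 with the GC trend removed, and 8 to 460 with 1 library left out (without HA 1 and without HA-con 2). The 3 arms called higher became 0 with the quasi-likelihood test, 1 without a filter, 1 in the sequence subset, 0 with the GC trend removed, and 0 to 7 with 1 library left out (0 without any 1 of the HA libraries, 7 without HA-con 2). The single call among the neighbours, hsa-miR-421, became 0 with the quasi-likelihood test, a mean of at least 10 CPM, the sequence subset and the GC correction, and 0 to 2 with 1 library left out. The AU-rich median of 0.55 was 0.0421 with the GC trend removed and 0.39 to 0.97 with 1 library left out. The GC correction turned the sign of hsa-miR-374a-3p (-0.16) and hsa-miR-545-5p (-0.0366). hsa-miR-374b-5p, at -0.01, was 0.00075 with DESeq2 and 0.00075 with its size factors, 0.0867 with library size, 0.13 without a filter, 0.0235 with one fit, -0.46 without HA-con 1, 0.83 without HA-con 2 and 0.09 without HA 1. hsa-miR-340-3p was -0.83 without HA-con 1 and 0.46 without HA-con 2. Fits with 1 HA control assume that it varies like the HA libraries. The cause of these shifts was not tested.

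With the replicate number as a block, 111 miRNAs and 4 arms were called in co-treatment and 15 miRNAs, 0 arms and 0 neighbours in pre-treatment, where hsa-miR-374b-5p was at 0.14. Same-numbered libraries correlated in their deviations at 0.04, -0.24 and -0.26 in co-treatment and 0.36 and -0.02 in pre-treatment. Libraries with different numbers correlated at between -0.36 and 0.32. The deviations are from group means, so those of both HA controls mirror each other. These values therefore cannot tell whether same-numbered libraries share more than a number.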
